A study of Homo sapiens with 6 samples.

Results

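The EGFR system in these cells was described through 9 genes: the ligands AREG, EREG, HBEGF, TGFA and BTC, the receptors EGFR, ERBB2 and ERBB3, and the receptor inhibitor ERRFI1. The genes were taken by symbol from count tables that list 24462 distinct gene symbols, and each was found on 1 row. The samples were H460 cells, an established human lung cancer cell line, in 2 groups of 3 libraries. The depleted cells were kept for 24 h in RPMI 1640 without glutamine, supplemented with dialyzed fetal bovine serum. The replete cells are labelled glutamine-replete, and the labels give their growth medium as RPMI 1640 with fetal bovine serum. No label says that this serum was dialyzed, so glutamine withdrawal and dialysis of the serum cannot be told apart. All libraries come from the same line, and no genetic change or agent other than the medium is named. The library kit reads each mRNA from its 3′ end, next to the poly(A) tail, so counts were not divided by transcript length. The labels do not say that replicates were separate cultures, and p-values therefore measure the spread between these libraries, which may be technical.

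EGFR, also called ERBB1, is a receptor tyrosine kinase of the cell surface. Its ligands are made as membrane-anchored precursors, which proteases such as ADAM17 cut to release the active growth factor. A bound ligand lets the receptor pair with itself or with another ERBB receptor, and the pair signals through the RAS and ERK cascade, PI3-kinase and phospholipase C. ERBB2 has no known ligand of its own and acts as a partner, ERBB3 binds neuregulins and has very weak kinase activity, and ERRFI1 (also called MIG6) binds the EGFR kinase domain and blocks it. In epithelia of the lung this system is known for growth and wound repair, and EGFR itself is a frequent driver of lung adenocarcinoma.

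Libraries held 7550849 to 10914899 counts, and 3 counts, the upper limit that a count of 0 allows, stood for 0.275 to 0.397 CPM, counts scaled to a common total per library. That limit and all counting intervals below cover counting error only. Depleted replicate 2 stood apart from the other depleted libraries, at 18.0 (against replicate 1) and 10.9 (against replicate 3) for the chi-square divided by its degrees of freedom. The other within-group pairs lay between 1.496 and 3.71. Of the epithelial markers, the keratins KRT8, KRT18 and KRT19 were well detected, whereas the adhesion genes EPCAM and CDH1 were at or near 0 in every library. The 5 epithelial markers summed to 761 to 881 CPM in depleted libraries and 2067 to 2092 CPM in replete libraries. The 6 fibroblast markers summed to 38.8 to 115 CPM in depleted libraries and 28.5 to 41.8 CPM in replete libraries, and the highest value belonged to depleted replicate 3. The 3 endothelial markers stayed at or below 0.126 CPM, with VWF and CDH5 at 0 throughout. The 5 blood markers summed to 0.808 to 1.26 CPM in depleted and 2.10 to 4.04 CPM in replete libraries. The part of these marker levels in the results below was not tested.

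The sequences just upstream of AREG, EREG and HBEGF are shown because these ligand genes had the largest differences among the 9 genes that were tested. They are the 250 bases before the annotated transcript start on the strand of the gene, from RefSeq on GRCh38.p14, a later build than the hg19 named for the counts. Of the 9 genes, 8 were matched in that table by symbol, all but ERBB3. Capitals mark matches to 5 motifs that were searched on both strands: TGANTCA (the AP-1 site), TGACGTCA (the cyclic AMP response element, CRE), GGAATG (a TEAD core), GNGTGGGNG (an EGR-type site) and TATAAA (the core of the TATA box). No match of one motif overlapped a match of another in these windows.
AREG (chr4:74444886-74445135, plus strand): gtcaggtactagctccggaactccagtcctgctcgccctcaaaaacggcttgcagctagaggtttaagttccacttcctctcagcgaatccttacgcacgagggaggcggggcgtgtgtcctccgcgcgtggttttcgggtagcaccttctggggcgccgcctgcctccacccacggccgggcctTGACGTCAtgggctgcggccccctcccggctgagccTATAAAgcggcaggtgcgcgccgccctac
EREG (chr4:74364895-74365144, plus strand): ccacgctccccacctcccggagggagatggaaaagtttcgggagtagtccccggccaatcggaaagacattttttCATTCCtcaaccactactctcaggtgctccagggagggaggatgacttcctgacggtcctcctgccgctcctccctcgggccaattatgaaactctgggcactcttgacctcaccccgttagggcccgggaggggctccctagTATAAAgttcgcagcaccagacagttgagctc
HBEGF (chr5:140346604-140346853, minus strand): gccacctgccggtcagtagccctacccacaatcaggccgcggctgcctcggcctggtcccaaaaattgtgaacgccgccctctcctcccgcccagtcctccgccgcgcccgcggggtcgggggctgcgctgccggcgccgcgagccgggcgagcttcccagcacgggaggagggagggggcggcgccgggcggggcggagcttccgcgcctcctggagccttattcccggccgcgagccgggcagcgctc
The AREG window held a full CRE that begins 65 bases before the start, and 1.65% of 35093 RefSeq windows of the same length hold one. AREG and EREG each held a TATAAA, beginning 29 and 32 bases before the start, a match found in 10.7% of the windows. EREG also held CATTCC, the reverse complement of the TEAD core, 175 bases before the start, with a match in 11.9% of the windows. The HBEGF window held none of the 5 motifs. Its GC content was 76.4%, against 65.2% for AREG and 58.0% for EREG. The AP-1 letters, present in 6.57% of the windows, were in none of the 3 windows printed, and the EGR-type letters, present in 14.6%, were also in none of them. These matches describe letters in a window and do not show that a factor binds there.

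The question addressed by the comparison was which transcripts differ between glutamine-depleted and glutamine-replete cells. Transcripts of the ligands AREG, HBEGF, EREG and TGFA were much more abundant in depleted cells, EGFR and ERRFI1 were higher by about a doubling, and ERBB2 was lower. Of the 9 genes, 7 passed the filter on low counts and could be tested, and all 7 passed an adjusted p of 0.05, with 6 higher and 1 lower in depleted cells. Over all 12739 genes tested, 78.6% passed, 39.1% as higher and 39.4% as lower, so passing the test does not set these genes apart. The CPM ranges of the groups did not overlap for any of the 7, and the same held for 81.0% of all genes tested, 33.2% as higher and 47.8% as lower. EREG and TGFA passed the filter through the depleted libraries alone, so these genes could hardly have been tested without a difference, and the count of 7 is given as a description. The log2 fold changes of the 7 ran from −0.99 to 5.35, and the median over all genes tested was −0.02. BTC and ERBB3 had too few counts to be tested. In such bulk libraries, a change in the number of cells that make a transcript and a change in its amount per cell cannot be told apart.

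**Figure D1:**
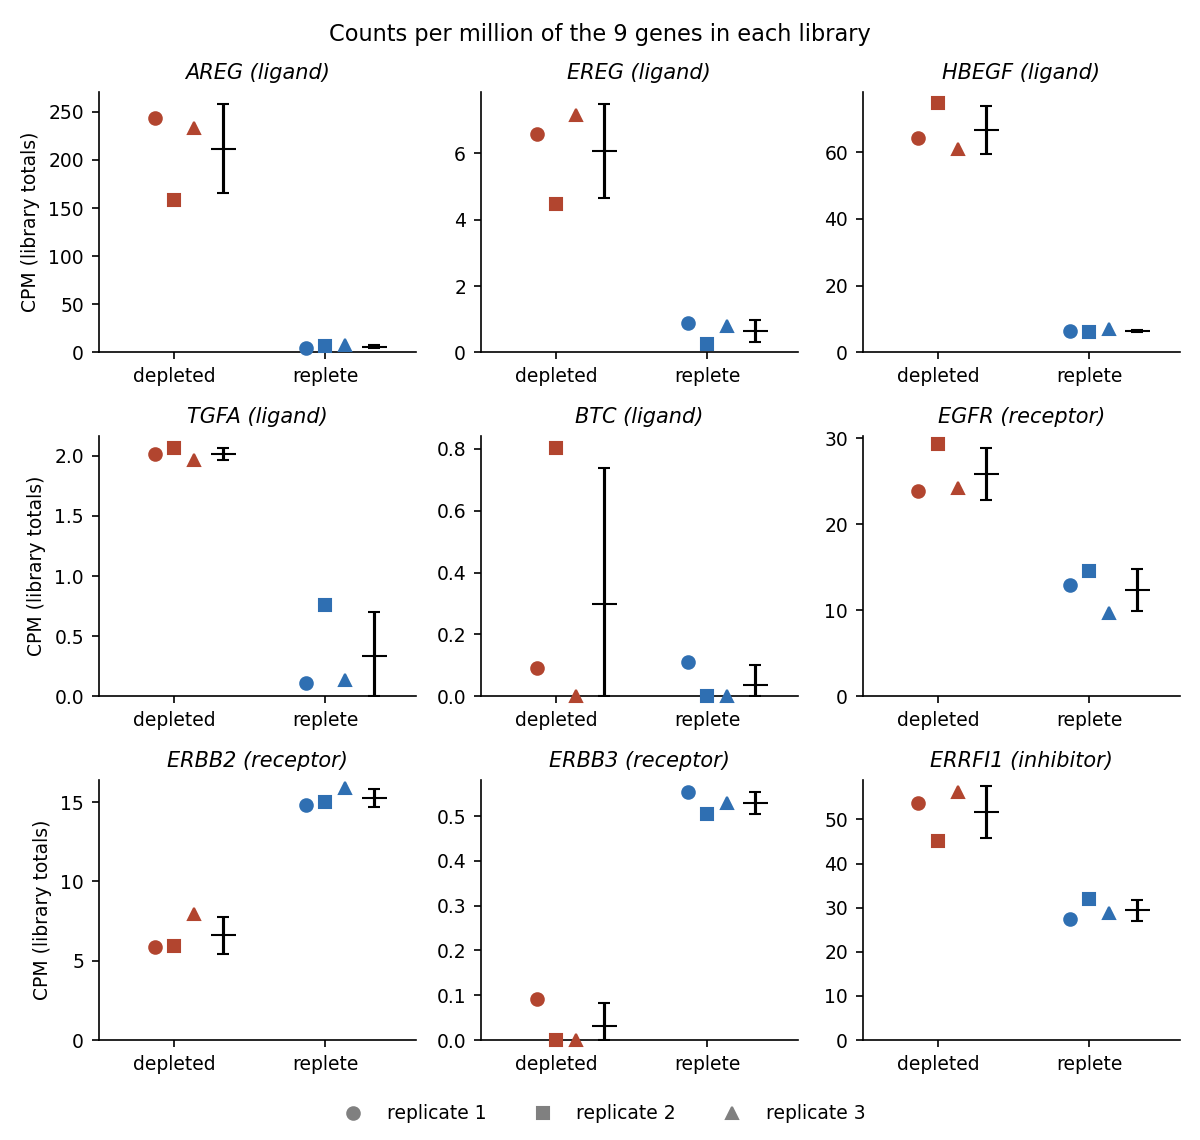
CPM of each gene (y axis, from library totals, starting at 0) in 3 depleted and 3 replete libraries, with a symbol per replicate and the mean ± SD at the right of each group. The y axes differ between panels. The groups do not overlap for any of the 7 tested genes, with ERBB2 lower and the other 6 higher in depleted cells.

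AREG, which encodes amphiregulin, a ligand of EGFR, had the largest change of the set. It stood at 243, 159 and 233 CPM in depleted replicates 1, 2 and 3, against 4.32, 6.44 and 7.68 CPM in replete replicates 1, 2 and 3. The groups were far apart, with the lowest depleted value in replicate 2, the library that stood apart. The mean was 212 ± 46.1 CPM in depleted cells and 6.15 ± 1.70 CPM in replete cells (SD, n = 3 each), or 5.35 higher on the log2 scale (SE 0.25, adjusted p = 2.75e-07 in edgeR). By size of the log2 fold change this was rank 92 from the top among 12739 genes. Without depleted replicate 2 the value was 5.52. Log2 fold changes here use trimmed-mean (TMM) scaling, whereas CPM uses library totals. Scaling by library totals alone moved the median gene by −0.23 and gave 5.12 for AREG. The hg19 build also carries AREGB, a near-identical copy of AREG that is not among the symbols used here, and how reads matching both copies were assigned is not given in the sources used here, so the AREG counts may lack part of its reads.

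HBEGF encodes heparin-binding EGF-like growth factor, a ligand of EGFR and ERBB4. Its level was 64.2, 74.6 and 60.9 CPM in depleted libraries and 6.42, 6.19 and 6.89 CPM in replete libraries. Replicates were close within each group and the groups did not overlap. The mean was 66.6 ± 7.12 CPM in depleted cells and 6.50 ± 0.36 CPM in replete cells (SD, n = 3 each), and the log2 fold change of 3.58 (SE 0.13, adjusted p = 5.01e-11 in edgeR) was the one with the smallest SE among the ligands.

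EREG encodes epiregulin, a ligand of EGFR and ERBB4. It was counted 72, 39 and 62 times in depleted libraries and 8, 2 and 6 times in replete libraries. This corresponded to 6.60, 4.47 and 7.15 CPM in depleted cells and 0.89, 0.25 and 0.79 CPM in replete cells. The groups did not overlap, and the replete values rested on 16 counts in all. The log2 fold change was 3.42 (SE 0.36, edgeR adjusted p = 1.29e-06), and the ratio of summed counts per library total was 9.36 with an exact 95% counting interval of 5.60 to 16.7.

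TGFA encodes transforming growth factor alpha, another EGFR ligand. It had 22, 18 and 17 counts in depleted libraries, which were nearly equal at 1.96 to 2.06 CPM, and 1, 6 and 1 counts in replete libraries. The groups did not overlap, but replete replicate 2 held 6 of the 8 replete counts. The log2 fold change was 2.79 (SE 0.51, edgeR adjusted p = 0.000212), and it was 4.10 without replete replicate 2. The ratio of summed counts was 6.16, with a counting interval of 2.93 to 14.96.

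BTC encodes betacellulin, a ligand of EGFR and ERBB4. It was counted 1, 7 and 0 times in depleted libraries and 1, 0 and 0 times in replete libraries. The 7 counts of depleted replicate 2 made up nearly all of its signal, and the groups overlapped. The ratio of summed counts was 6.92 with a counting interval of 0.93 to 307, so no difference was detectable at this depth. Summed over the 5 ligand genes, depleted libraries held 316, 241 and 303 CPM, against 11.9, 13.6 and 15.5 CPM in replete libraries.

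EGFR was at 23.9, 29.3 and 24.2 CPM in depleted libraries and 12.96, 14.5 and 9.67 CPM in replete libraries. Every depleted library was above every replete library, with the highest value in depleted replicate 2 and the lowest in replete replicate 3. The mean was 25.8 ± 3.04 CPM in depleted cells and 12.4 ± 2.48 CPM in replete cells (SD, n = 3 each). The log2 fold change was 1.28 (SE 0.16, 95% interval 0.94 to 1.62, edgeR adjusted p = 6.42e-06). EGFR-AS1, the antisense RNA whose exons overlap those of EGFR in the GENCODE 29 annotation, had a count of 0 in all 6 libraries.

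ERBB2 went the other way. It was at 5.86, 5.96 and 7.96 CPM in depleted libraries and 14.8, 15.03 and 15.9 CPM in replete libraries. The groups did not overlap, and the replete libraries were close to each other. The mean was 6.59 ± 1.18 CPM in depleted cells and 15.3 ± 0.56 CPM in replete cells (SD, n = 3 each), and the log2 fold change was −0.99 (SE 0.16, adjusted p = 7.95e-05 in edgeR). The 3′ end of ERBB2 lies in exons of MIEN1, a migration and invasion enhancer gene on the opposite strand, and the 3′ end of MIEN1 lies in exons of ERBB2, over 571 shared exonic bases in GENCODE 29. Whether reads were counted by strand is not given in the sources used here, so each gene of this pair may hold reads of the other. MIEN1 was at 59.2 ± 7.63 CPM in depleted cells and 46.2 ± 2.49 CPM in replete cells (log2 fold change 0.58, edgeR adjusted p = 0.000256). The log2 fold change of ERBB2 and MIEN1 summed was 0.32 (adjusted p = 0.00912 in edgeR), the opposite sign to ERBB2 alone, and most counts of that sum are those of MIEN1. PGAP3, also on the opposite strand, shares 194 exonic bases with ERBB2, and the 3′ end of neither gene lies in that overlap. PGAP3 was at 4.27 ± 0.49 CPM in depleted cells and 6.40 ± 0.63 CPM in replete cells (log2 fold change −0.36, edgeR adjusted p = 0.104).

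ERBB3 was close to the detection limit in both groups, with 1, 0 and 0 counts in depleted libraries and 5, 4 and 4 counts in replete libraries. Every replete library had more counts than every depleted library. The ratio of summed counts was 0.0666, with a counting interval of 0.00157 to 0.443. With no filter on low counts its log2 fold change was −3.28 (edgeR adjusted p = 0.0136). Summed over the 3 receptor genes, depleted libraries held 29.9, 35.3 and 32.2 CPM and replete libraries held 28.4, 30.1 and 26.1 CPM, and these ranges overlapped.

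ERRFI1, whose product inhibits the EGFR kinase and which is itself induced by EGFR signalling, was at 53.8, 45.1 and 56.2 CPM in depleted libraries. In replete libraries it was at 27.4, 31.95 and 28.9 CPM. The groups did not overlap, and depleted replicate 2 was the lowest of its group, as it was for AREG and EREG. The mean was 51.7 ± 5.81 CPM in depleted cells and 29.4 ± 2.34 CPM in replete cells (SD, n = 3 each), and the log2 fold change was 1.04 (SE 0.11, adjusted p = 1.48e-06 in edgeR). With library totals alone it was 0.82. The 3′ end of ERRFI1 lies in exons of AL034417.4, an antisense RNA in GENCODE 29 that is not among the symbols used here.

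**Figure D2:**
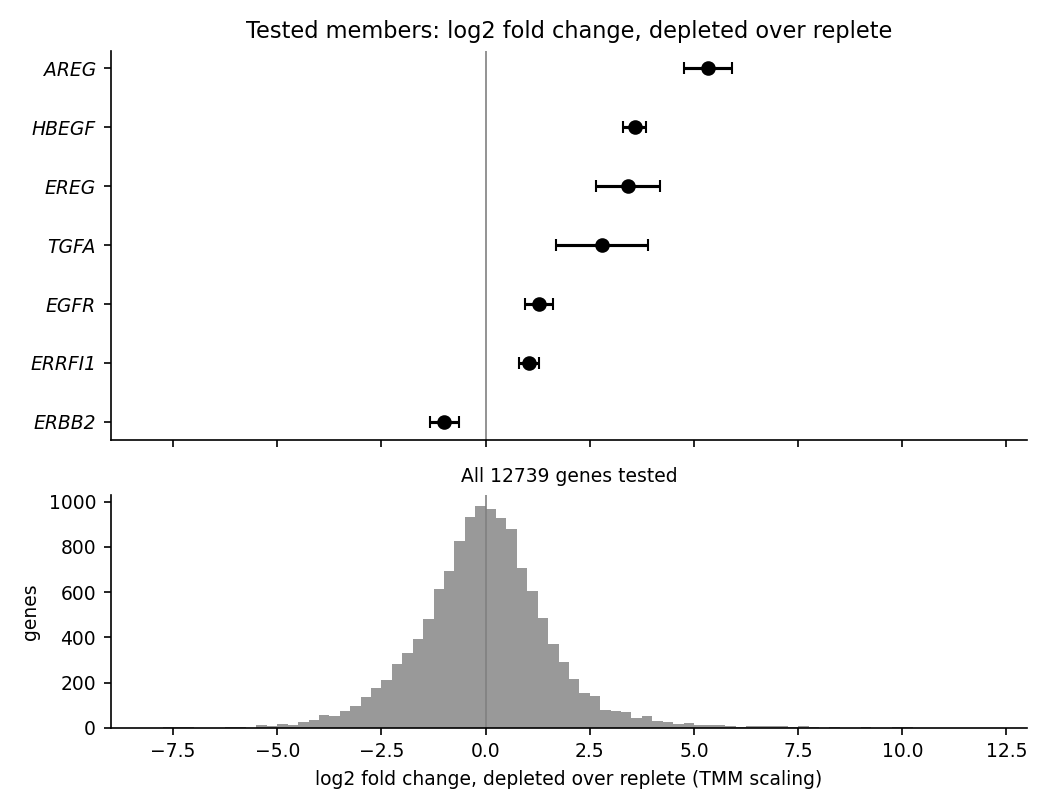
Log2 fold change of the 7 tested genes (points, with 95% intervals from edgeR's quasi-likelihood fit) above a histogram of the log2 fold changes of all 12739 genes tested. AREG at 5.35, HBEGF at 3.58, EREG at 3.42 and TGFA at 2.79 lie in the upper tail, in which 8.09% of genes were called with a log2 fold change above 2.

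Within the set, neighbours in the order of change could not all be separated. AREG had a 95% interval of 4.77 to 5.92, above that of HBEGF at 3.31 to 3.86. The intervals of EREG (2.65 to 4.19) and TGFA (1.70 to 3.89) overlapped each other and that of HBEGF. EGFR and ERRFI1 (0.80 to 1.28) also overlapped, and ERBB2 was the only tested gene with an interval below 0 (−1.33 to −0.64).

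Ratios of counts between genes of the same library do not depend on library scaling, and their change between groups does not depend on transcript length. AREG had 3.78, 2.13 and 3.83 counts per HBEGF count in depleted libraries, against 0.67, 1.04 and 1.12 in replete libraries. Relative to its own receptor, AREG had 10.2, 5.41 and 9.63 counts per EGFR count in depleted libraries and 0.33, 0.44 and 0.79 in replete libraries. HBEGF had 2.69, 2.54 and 2.51 counts per EGFR count in depleted libraries and 0.50, 0.43 and 0.71 in replete libraries. These ratios separated the groups without overlap.
EGFR had 4.08, 4.92 and 3.04 counts per ERBB2 count in depleted libraries and 0.87, 0.97 and 0.61 in replete libraries, with the limit on ERBB2 given above. ERRFI1 had 2.25, 1.54 and 2.32 counts per EGFR count in depleted libraries and 2.11, 2.20 and 2.99 in replete libraries, and here the groups overlapped. With 3 libraries against 3, a two-sided exact permutation test cannot go below p = 0.1. It gave that value for 5 of the 6 ratios tested (0.12 after Benjamini-Hochberg adjustment over the 6), and 0.6 for ERRFI1 per EGFR, where the ratio in depleted cells was 0.833 of that in replete cells.

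**Figure D3:**
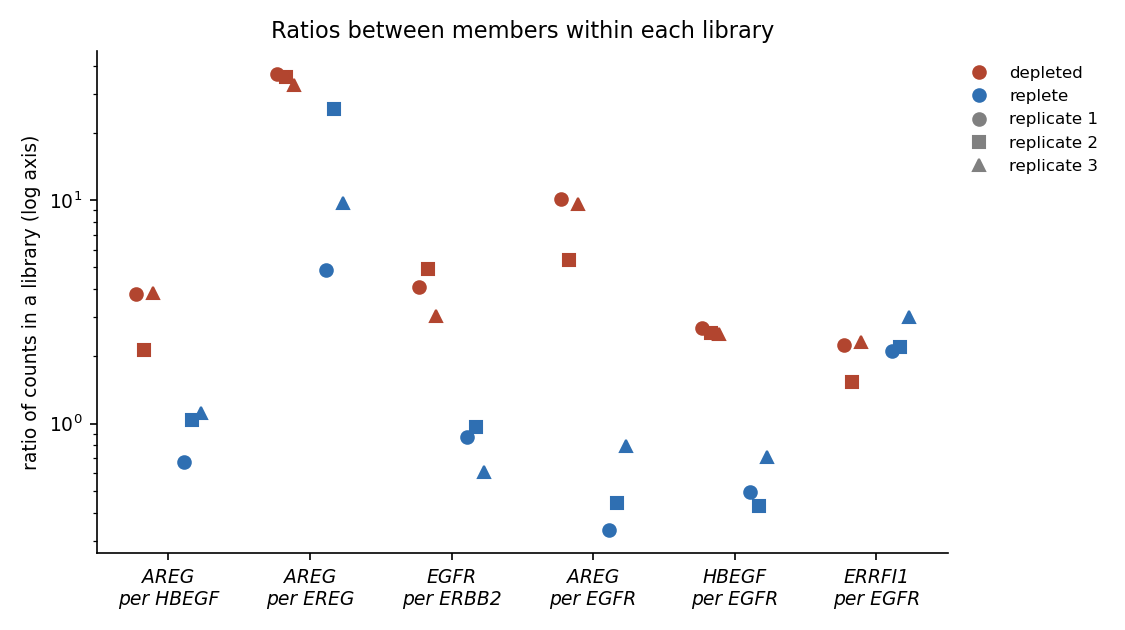
Ratio of the counts of 2 genes within each library (log y axis) for 6 pairs, with a symbol per replicate, depleted left of replete. The groups are apart for every pair except ERRFI1 per EGFR, and AREG per EREG spreads widely in replete cells, from 4.88 to 25.5.

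EREG, AREG and BTC also share a place in the genome. In RefSeq order, EPGN, EREG, AREG and BTC are consecutive protein-coding genes of chromosome 4, with MTHFD2L before and PARM1 after them. EPGN, which encodes the EGFR ligand epigen, was at 123, 145 and 117 CPM in depleted libraries and 109, 109 and 111 CPM in replete libraries. Its groups did not overlap, and its log2 fold change was 0.46 (SE 0.09, edgeR adjusted p = 0.000444). The flanking gene MTHFD2L, a mitochondrial folate enzyme, was at 13.2 ± 1.74 CPM in depleted cells and 13.7 ± 2.98 CPM in replete cells (log2 fold change 0.18, edgeR adjusted p = 0.347). PARM1 was at 0.72 ± 0.71 CPM in depleted cells and 1.70 ± 0.40 CPM in replete cells (log2 fold change −1.01, edgeR adjusted p = 0.106). Beyond these genes, the next protein-coding gene on each side was higher in depleted cells, as were 39.1% of all genes tested. CXCL2, a chemokine gene next to MTHFD2L, was at 779, 389 and 630 CPM in depleted libraries and 76.6, 70.5 and 69.3 CPM in replete libraries, without overlap (log2 fold change 3.28, SE 0.29, edgeR adjusted p = 0.000204). RCHY1, a ubiquitin ligase gene next to PARM1, was at 58.7 ± 9.24 CPM in depleted cells and 21.5 ± 2.58 CPM in replete cells (log2 fold change 1.68, edgeR adjusted p = 7.02e-08), and its exons overlap those of THAP6 on the other strand. Large differences in this stretch were therefore not limited to the ligand genes. The neighbours were looked up after the values of the ligands were known.

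**Figure D4:**
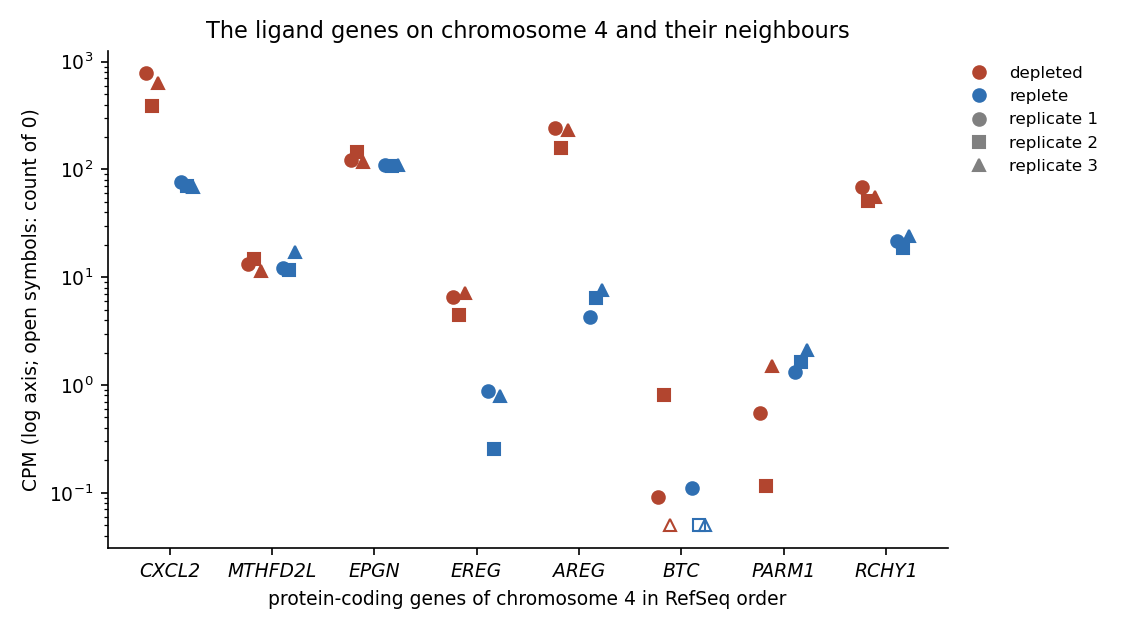
CPM (log y axis) in each library for consecutive protein-coding genes of chromosome 4, depleted left of replete; open symbols at the bottom are counts of 0. EREG and AREG are apart between groups by about an order of magnitude or more, CXCL2 and RCHY1 are also clearly apart, EPGN differs by little, and MTHFD2L, BTC and PARM1 overlap.

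The other members of the EGF and neuregulin family moved in both directions. EGF, the founding ligand, fell to 6.31 ± 0.64 CPM in depleted cells, against 14.6 ± 0.39 CPM in replete cells (log2 fold change −0.98, edgeR adjusted p = 4.26e-05). NRG1, which encodes neuregulin 1, a ligand of ERBB3 and ERBB4, rose to 4.97 ± 1.03 CPM in depleted cells, against 2.14 ± 0.67 CPM in replete cells (1.43, edgeR adjusted p = 0.000367). NRG2 fell by 2.59 on the log2 scale, with 9 counts in depleted and 57 in replete cells. It passed the filter on low counts through the replete libraries alone, and the log2 fold change was −3.59 without depleted replicate 3. The value for NRG4 was 0.43 (adjusted p = 0.0671 in edgeR). NRG4 exons overlap those of FBXO22 on the other strand. ERBB4, the remaining receptor, had 5 counts in depleted and 0 in replete cells, and NRG3 had 0 in depleted and 1 in replete cells. Of the 7 listed genes, 5 were tested, 2 of which rose and 2 fell. Over all genes tested 39.1% rose and 39.4% fell, so this split does not set the family apart. Against a 1.5-fold change, 1 of the 5 rose and 2 fell, and 3324 of all 12739 genes were higher and 3455 lower.

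Among genes that process and carry the ligands, more fell than rose, and the main protease rose. ADAM17, the sheddase of amphiregulin, epiregulin, HB-EGF and TGF-alpha, was at 106, 127 and 91.6 CPM in depleted libraries and 66.8, 66.3 and 69.4 CPM in replete libraries. The groups did not overlap (log2 fold change 0.91, SE 0.11, edgeR adjusted p = 6.10e-06), and ADAM17 exons overlap those of IAH1 on the other strand. Its partners, the iRhoms that carry ADAM17 through the secretory pathway, moved apart. RHBDF1 (iRhom1) rose to 32.1 ± 7.23 CPM in depleted cells, against 19.3 ± 3.41 CPM in replete cells. RHBDF2 (iRhom2) fell to 6.22 ± 1.49 CPM in depleted cells, against 22.1 ± 1.37 CPM in replete cells (log2 fold change −1.60, edgeR adjusted p = 1.49e-06). FRMD8, which stabilises the iRhom and ADAM17 complex at the cell surface, fell to 47.0 ± 4.77 CPM in depleted cells, against 107 ± 4.61 CPM in replete cells. CNIH4, a cornichon-family cargo receptor of the early secretory pathway, had a log2 value of −0.41 (adjusted p = 0.000113 in edgeR) and so fell. Of 11 tested genes on this list, 2 rose, 7 fell and 2 did not pass, with a median log2 fold change of −0.41 against −0.02 for all genes tested, of which 39.1% rose and 39.4% fell. Tested against a 1.5-fold change, 2 rose and 3 fell, and 3324 of all 12739 genes were higher and 3455 lower. ADAM12, counted among the 7, and TIMP3, which did not pass, were tested through the replete libraries alone.

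Among genes of receptor traffic and restraint, more rose than fell. RAB7A, the late-endosomal GTPase on the route to the lysosome, reached 417 ± 2.58 CPM in depleted cells, against 145 ± 6.46 CPM in replete cells (log2 fold change 1.75, SE 0.07, edgeR adjusted p = 9.11e-11). ERBB2IP, which encodes the ERBB2-binding scaffold erbin, rose to 83.2 ± 9.27 CPM in depleted cells, against 36.0 ± 2.09 CPM in replete cells. RAB5A, the early-endosomal GTPase, rose by 1.19 on the log2 scale (adjusted p = 3.11e-08 in edgeR), and its exons overlap PP2D1 on the other strand. On the lower side, EPS15, an adaptor of receptor endocytosis, fell by 0.93 on the log2 scale. MVP, which encodes the major vault protein, fell by 1.59, and LRIG3, a transmembrane protein of the LRIG family, fell by 2.54 to 0.29 ± 0.09 CPM in depleted cells, against 2.02 ± 0.32 CPM in replete cells. LRIG3 passed the filter on low counts through the replete libraries alone. Of 21 tested genes, 15 rose, 3 fell and 3 did not pass (median log2 fold change 0.59), against 39.1% higher and 39.4% lower over all genes tested. With library totals alone, 12 rose and 3 fell, against 4132 and 5924 of all 12739 genes. Against a 1.5-fold change 9 rose and 3 fell, with 3324 higher and 3455 lower among all genes.

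Adaptors and downstream kinases had no common direction. PIK3R1, the p85-alpha regulatory subunit of PI3-kinase, fell to 20.3 ± 1.48 CPM in depleted cells, against 68.8 ± 4.59 CPM in replete cells (log2 fold change −1.53, edgeR adjusted p = 1.54e-08). MAPK3, which encodes ERK1, fell to 7.002 ± 0.57 CPM in depleted cells, against 26.2 ± 2.09 CPM in replete cells. The RAS exchange factors moved apart, with SOS1 at a log2 fold change of −1.53 and SOS2 at 0.92 (adjusted p = 2.53e-07 and 7.95e-06 in edgeR). PDPK1, the kinase that activates AKT, rose to 31.0 ± 3.67 CPM in depleted cells, against 16.0 ± 1.94 CPM in replete cells. GRB2, the adaptor that links the receptor to the SOS proteins, rose by 0.43 on the log2 scale (adjusted p = 0.000387 in edgeR). Of 27 tested genes, 9 rose, 11 fell and 7 did not pass, against 39.1% higher and 39.4% lower over all genes tested. The median log2 fold change was −0.12, and this split does not set the list apart. With library totals alone, 6 of the 27 rose and 15 fell, against 4132 and 5924 of all 12739 genes. Against a 1.5-fold change 3 rose and 10 fell, with 3324 higher and 3455 lower among all genes. GAB1, among those that fell, and BRAF, among those that rose, were tested through 1 group alone.

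**Figure D5:**
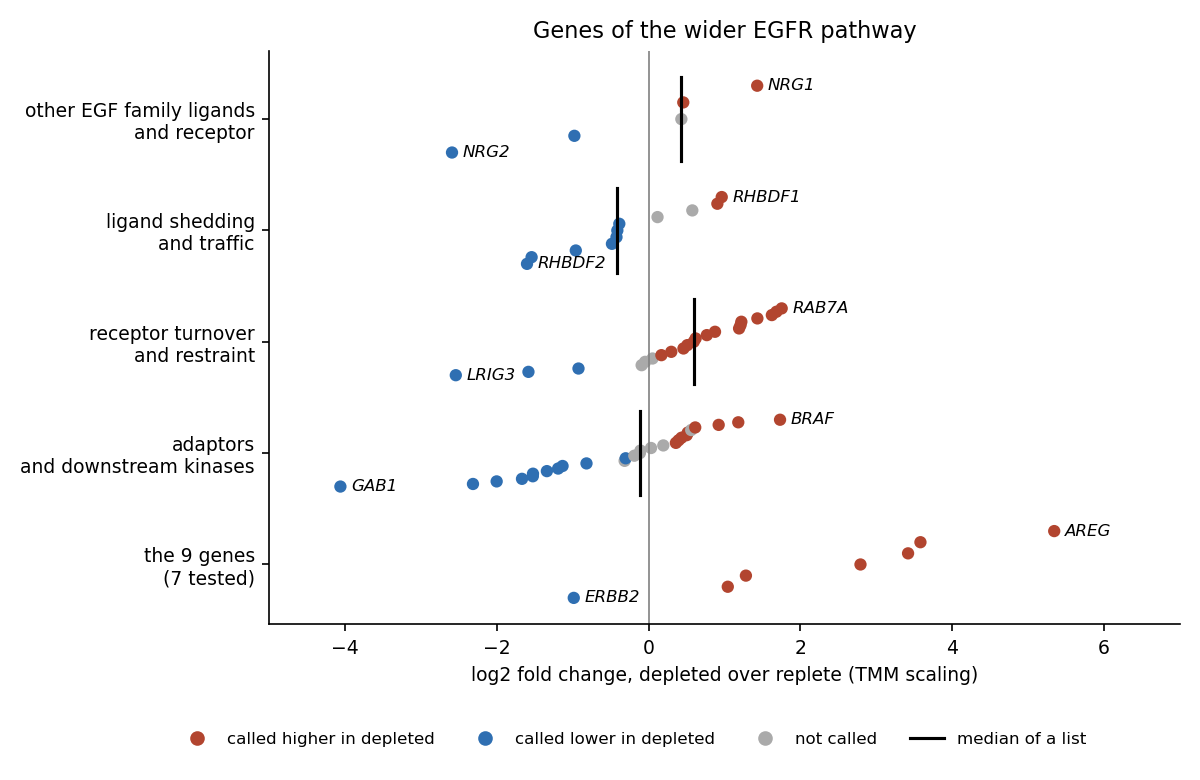
Log2 fold change of every tested gene of 4 wider pathway lists and of the 7 tested genes of the set (x axis), coloured by call at an edgeR adjusted p of 0.05, with a black bar at the median of each list and the lowest and highest gene of each row named. The list medians are 0.43, −0.41, 0.59 and −0.12. Of the 64 list genes, 5 passed the filter on low counts through the replete libraries alone and 1 through the depleted libraries alone.

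The genes most like AREG, EGFR, ERBB2, ERRFI1 and HBEGF across the 6 libraries were found among 8507 genes with a mean of at least 10 CPM. Likeness was the root mean square distance between log2 CPM values centred on the mean of each gene, and with 2 groups it mostly reflects a similar fold change. Closest to HBEGF was NR4A3, an orphan nuclear receptor, at a distance of 0.043, followed by IL6R, the interleukin-6 receptor, at 0.074 and SLC25A25, a mitochondrial carrier, at 0.076. NR4A3 was at 89.4 ± 5.94 CPM in depleted cells and 9.01 ± 0.47 CPM in replete cells. AREG had no neighbour that close, with PVRL4 (nectin-4) at 0.25, SNAPC1 (a subunit of the small nuclear RNA activating complex) at 0.28 and AHRR (the aryl hydrocarbon receptor repressor) at 0.29. PVRL4 was at 20.4 ± 0.75 CPM in depleted cells and 0.50 ± 0.17 CPM in replete cells. AHRR was at 39.9 ± 7.34 CPM in depleted cells and 1.47 ± 0.71 CPM in replete cells. PVRL4 and AHRR reached a mean of 10 CPM through the depleted libraries alone, and their replete values were low. Closest to EGFR were GPRC5C, an orphan G-protein-coupled receptor, at 0.079, SLC25A38, a mitochondrial glycine carrier, at 0.097 and NPLOC4, a cofactor of the p97 ATPase, at 0.099. Closest to ERBB2 were ESRP2, an epithelial splicing regulator, at 0.034, C14orf1 at 0.044 and LRFN4 at 0.060. Closest to ERRFI1 were PPRC1, a transcriptional coactivator, at 0.032, SEC62, of the endoplasmic reticulum translocon, at 0.041 and the phosphatase gene PTPN2 at 0.056. Exons of SLC25A25, NPLOC4, ESRP2 and LRFN4 overlap those of another counted gene on the opposite strand.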

How the data were processed

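RNA was measured in 3 libraries of glutamine-depleted and 3 of glutamine-replete H460 cells. Per the labels' protocols, libraries were made from 500 ng of TRIzol-extracted RNA with the Lexogen QuantSeq 3′ kit. The authors deposited raw counts per gene symbol, 1 library per file, and the values were checked to be whole numbers whose totals differ. Bowtie2, edgeR and hg19 appear in the submitters' processing notes, with no role or version. How reads were assigned to genes, by which program, annotation and strand setting, is not given in the sources used here.

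Counts of the 286 symbols on several entries were summed; none of the 9 genes was among them. Genes were kept by filterByExpr (minimum count 10, minimum total 15), scaled by TMM (factors 0.917 to 0.929 in depleted and 1.08 to 1.09 in replete libraries) and tested with edgeR 4.0.16 (R 4.3.3; glmQLFit with robust = TRUE, two-sided quasi-likelihood test), with Benjamini-Hochberg adjustment over all 12739 genes and a threshold of 0.05. The SE is the log2 fold change divided by the square root of F. The test code was run on simulated counts with a small set of planted changes and an equal spread in all libraries. That run does not cover data like these, in which most genes passed and 1 library stood apart. Alternatives used DESeq2 1.42.0 and limma 3.58.1 among others. Ratios and counting intervals (exact Clopper-Pearson) used Python 3.11.15 and scipy 1.17.1.

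The genes, lists and alternatives were chosen with earlier results of these data known. Text names the 9 genes, every other gene of the EGF and neuregulin family, up to 3 called genes per direction of each other list, by smallest p, and the 3 genes nearest to each of the 9 with a mean of at least 10 CPM. Flanking genes, MIEN1 and genes that passed the filter through 1 group were named after values were seen. Overlaps come from GENCODE 29: of 79 other genes looked up, 76 were found and 18 overlap a counted gene on the opposite strand. Current gene names come from RefSeq.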

Additional observations from a re-analysis of the deposited data

How the results depend on the processing

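The direction and the call of AREG, HBEGF, EGFR and ERRFI1 held under every alternative run: DESeq2 size factors, library totals, upper quartile factors, testing without a count filter, a mean of at least 10 CPM, the replicate block, leaving out each library, DESeq2, limma-voom, glmTreat against 1.5-fold and the largest entry per symbol. EREG and TGFA held wherever they were tested, and a mean of at least 10 CPM leaves them out. Because these 2 genes passed the filter through the depleted libraries alone, the settings that keep that filter add little for them. Without a count filter both were also called higher (edgeR adjusted p = 7.84e-16 and 2.60e-06). Dropping the filter moved edgeR adjusted p-values in both directions. HBEGF went from 5.01e-11 to 4.70e-46 and AREG from 2.75e-07 to 0.000106, so these values do not compare directly with those of the main fit. Leaving out a library, the log2 fold change ran from 5.10 to 5.52 for AREG, 3.03 to 3.72 for EREG, 2.32 to 4.10 for TGFA and −1.13 to −0.89 for ERBB2, with 6 genes higher and 1 lower each time. In those fits 4691 to 5257 genes in all were higher and 4826 to 5368 lower, of 12953 to 13010 tested. Without a count filter, 2 of the 9 genes were called lower, because ERBB3 was then tested, and BTC did not pass (edgeR adjusted p = 0.0981). That unfiltered fit called 5524 genes in all higher and 5504 lower, of 19288 tested, so being called lower there does not set ERBB3 apart. Summing ERBB2 with MIEN1, chosen after seeing the data, gave 0.32 for the sum, most of whose counts are those of MIEN1. With the sum in the place of ERBB2, 0 of the 9 genes were called lower at an adjusted p of 0.05 in edgeR and 7 higher. That fit tested 12738 genes, and 49.8% of all genes it called were higher. The change of sign between ERBB2 and the sum is therefore not a value of ERBB2 itself. Against 1.5-fold, 3324 genes in all and 15 genes of the wider lists were called higher, against 4987 and 28; CNIH4, EPGN and GRB2 did not pass. With library totals alone, 22 genes of the wider lists rose and 27 fell, against 28 and 23. The whole table moved the same way, with 4132 genes higher and 5924 lower of 12739 tested, against 4987 and 5025. With the replicate block, 6 genes were higher and 1 lower, and 4941 genes in all were higher and 4999 lower; correlations of same-numbered libraries were 0.19, 0.05 and 0.03 over 8507 genes, so the numbers were not taken to pair them, and not every library correlated best with its own number. The planned sum of AREG with AREGB was not run, because AREGB was not among the symbols used here. Depth limits BTC, ERBB3, ERBB4 and NRG3, which the count filter of the main fit left untested.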
